A study of Mus musculus with 8 samples.

Results

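The genes that make reactive oxygen species at the gut surface, the main glutathione peroxidases of the epithelium and the inducible nitric oxide synthase were compared between crypts of the small intestine (SI) and of the colon (COL). The 10 genes were taken by symbol, of 45706 genes in the count tables: Nox1, Noxo1, Noxa1, Cyba, Duox2, Duoxa2, Gpx1, Gpx2, Gpx4 and Nos2. All of them were found, and all passed the filter on low counts. Crypts, the pockets of the gut lining that hold its dividing cells, were freshly isolated by EDTA chelation from 4 wild type C57BL/6N mice. SI and COL were sampled from every mouse, which gave 8 libraries. Mice 1 and 5 of the labels were female and mice 2 and 3 were male, so that the fourth mouse carries the number 5. None carried a transgene, and their age is not given in the sources used here. The study's description of crypt isolation is given for organoid cultures. In it, crypts came from the proximal SI after the villi had been scraped off. The comparison asks how the SI and COL epithelium differ before any oncogene is switched on.

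NADPH oxidases move electrons from NADPH across a membrane onto oxygen. Nox1 makes superoxide and works only with partner proteins, the membrane subunit p22phox (Cyba), the organizer Noxo1 and the activator Noxa1, together with a Rac GTPase. Duox2 releases hydrogen peroxide into the lumen and needs the maturation factor Duoxa2 to leave the endoplasmic reticulum. The glutathione peroxidases Gpx1, Gpx2 and Gpx4 reduce peroxides with glutathione and carry selenocysteine at the active site. Gpx1 is found in most cells, Gpx2 is the form typical of the gastrointestinal epithelium, and Gpx4 reduces lipid hydroperoxides within membranes. Nos2 makes nitric oxide from arginine.

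Levels are given as CPM, counts scaled to a library total of 1000000 after TMM normalization, which corrects for the make-up of a library. Total counts were between 15969428 and 32908060 per library. The TMM factors were 0.727 to 0.798 in SI and 1.01 to 1.45 in COL. The share of mitochondrially encoded transcripts was low (4.83 to 7.35%) in SI1, COL3, SI4 and COL4 and high (22.7 to 50.8%) in the other 4 libraries, COL1, COL2, SI2 and SI3. Each tissue thus had 2 libraries of either kind. In SI both low-share libraries came from female and both high-share libraries from male mice, so that sex and share cannot be told apart there, whereas in COL each kind had 1 female and 1 male mouse. The difference within each kind is given where it bears on a result. Epithelial genes such as Epcam (653 CPM in SI and 466 CPM in COL) were abundant in both tissues. The 7 epithelial markers were not all alike, however. Mean levels of Vil1 (3552 against 373 CPM) and Cldn7 (1439 against 575 CPM) were higher in SI, whereas Krt18 (248 against 653 CPM) was higher in COL. Their sum ranged from 8724 to 14271 CPM in SI libraries and from 4552 to 13591 CPM in COL libraries. The SI libraries also held 50571 to 111275 CPM of 6 enterocyte markers, against 94.0 to 342 CPM in COL, and 564 to 3965 CPM of 6 Paneth cell markers, against 17.9 to 83.0 CPM. The sums of 6 colonocyte markers overlapped, at 5089 to 11423 CPM in SI and 5853 to 33708 CPM in COL. Of these, Car1, Car4, Aqp8 and Saa1 were higher in COL, whereas Krt20 (7752 against 928 CPM) was higher in SI. The 7 proliferation markers summed to 109 to 479 CPM in SI, lowest in SI1, and 328 to 598 CPM in COL. None of these 7 passed the test described below. The 5 stem cell markers summed to 30.7 to 310 CPM in SI and 39.0 to 54.4 CPM in COL. Much of the sum in SI2, SI3 and SI4 was Olfm4 alone (161, 254 and 180 CPM), which had 9.74 CPM in SI1 and at most 3.50 CPM in a COL library. Olfm4 was the only 1 of the 5 to pass the test described below, and their median log2 fold change (SI minus COL) was -0.13. The 7 goblet cell markers summed to 2866 to 10946 CPM in SI and 12761 to 24152 CPM in COL. In such bulk libraries, fewer cells of a type and less RNA per cell cannot be told apart. The part of these cell type differences in the values below was not tested.

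Of the 10 genes, 5 differed between the tissues. The test was the quasi-likelihood test of edgeR, with Benjamini-Hochberg adjustment over 14491 genes. Nox1, Noxa1 and Duox2 were higher in COL, and Gpx4 and Nos2 were higher in SI. Among all genes tested, 28.4% were called, 15.5% as higher in SI and 12.9% as higher in COL (2253 and 1863 genes; 1115 and 4788 when library size alone replaced TMM, which called Gpx2 as well). The levels of the tissues did not overlap for the same 5 genes, which moved in 1 direction in 4 of 4 mice, against 33.5% of all genes with no overlap. The median log2 fold change (SI minus COL) was -0.38 over the 10 genes and -0.09 over all genes tested.

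**Figure D1:**
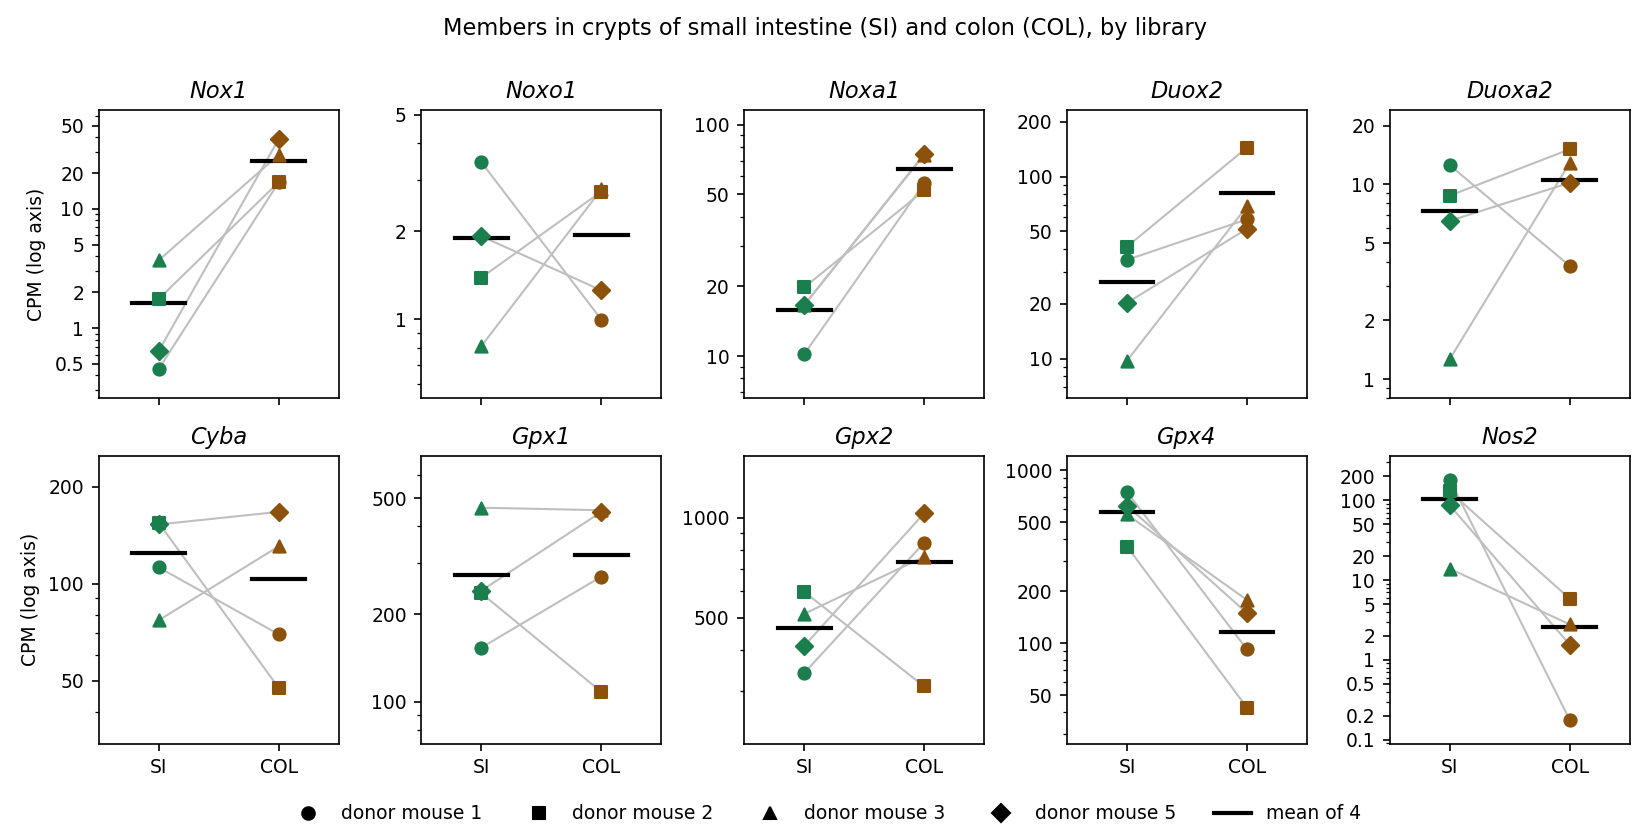
Level of each of the 10 genes in CPM (log axis, own range per panel) in the 4 SI and 4 COL libraries, with a symbol per donor mouse, a grey line joining the libraries of a mouse and a black bar for the mean. The tissues are apart for Nox1, Noxa1, Duox2, Gpx4 and Nos2 and overlap for the other 5 genes.

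Nox1, the catalytic subunit, was close to the limit of detection in SI and expressed in COL. Its levels were 0.453, 1.75, 3.70 and 0.641 CPM in SI1 to SI4 and 16.7, 16.8, 28.4 and 38.5 CPM in COL1 to COL4. The highest SI library, SI3, lay below the lowest COL library. The SI mean was 1.64 ± 1.49 CPM and the COL mean 25.1 ± 10.5 CPM (SD, n = 4). The log2 fold change was -3.94 (SE 0.63, adjusted p = 0.000803 by edgeR's quasi-likelihood test), and the mean CPM was 15.3 times as high in COL. The SI values rest on 10 to 73 counts per library, so that counting error adds to the spread between mice there. Within the mice, COL exceeded SI by 36.8-, 9.58-, 7.68- and 60.0-fold in mice 1, 2, 3 and 5. The difference was larger between the libraries of low mitochondrial share (-5.70 on the log2 scale) than between those of high share (-2.66), and without SI3 the fitted log2 fold change was -4.73. Nox1 lies on chromosome X (134086421 to 134221956, minus strand, GRCm38), and 13.9% of the 50-base stretches of its transcript also occur in Cstf2 on the opposite strand, for which SI had 21.3 ± 1.46 CPM and COL 27.4 ± 4.65 CPM.

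Noxa1, the activator of Nox1, followed the same direction with a smaller difference. It measured 10.2, 19.8, 16.6 and 16.6 CPM in SI1 to SI4 and 55.9, 52.0, 74.1 and 74.7 CPM in COL1 to COL4. Each COL library was above every SI library, and the spread within a tissue was small, at most 1.94-fold. The SI mean was 15.8 ± 4.04 CPM and the COL mean 64.2 ± 11.9 CPM. Noxa1 had a log2 fold change of -2.02 (SE 0.28, adjusted p = 0.000287 by edgeR's quasi-likelihood test). At high mitochondrial share the difference was -1.57 on the log2 scale, and at low share it was -2.51. Noxa1 lies on chromosome 2 (25085667 to 25095149, minus strand). Its neighbour on the opposite strand, Entpd8, shares 50 bases with it and moved the other way (log2 fold change 1.60, SE 0.36).

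Noxo1, the organizer that tethers the complex, was scarce in both tissues. The levels were 3.44, 1.39, 0.811 and 1.92 CPM in SI1 to SI4 and 0.997, 2.73, 2.78 and 1.26 CPM in COL1 to COL4, from 16 to 104 counts. The tissues overlapped throughout, SI was higher in mice 1 and 5, and COL was higher in mice 2 and 3. The log2 fold change of -0.03 (SE 0.60, interval of 2 SE either way -1.22 to 1.16, adjusted p = 0.976 by edgeR) leaves room for a change of over 2-fold either way. Of its transcript, 60.2% lies opposite an exon of Tbl3, for which SI had 38.7 ± 5.06 CPM and COL 36.6 ± 16.4 CPM. Whether the counting used the strand is not given in the sources used here, so reads of the pair may not be told apart.

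Cyba, which encodes the p22phox subunit that stabilises several NADPH oxidases, was the most abundant of the oxidase genes. It measured 112, 154, 76.9 and 153 CPM in SI1 to SI4 and 69.6, 47.5, 130 and 167 CPM in COL1 to COL4. The lowest and the highest library were both COL. Cyba had a log2 fold change of 0.26 (SE 0.41, interval of 2 SE either way -0.56 to 1.08, adjusted p = 0.681 by edgeR). Between libraries of high mitochondrial share it was 0.92 higher in SI on the log2 scale, and between those of low share it was -0.17.

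The ratio of a pair of genes within a library does not depend on how the library is scaled. Over 8 such ratios, an exact permutation test (two-sided) over the 70 assignments of the libraries was used, which cannot give a p below 0.0286. The ratio of each of the 3 partners to Nox1 was higher in SI than in COL. Noxa1 was 7.06 to 39.7 times Nox1 per kb of transcript in SI and 3.08 to 5.31 times in COL, a difference of 2.25 in log2 ratio. Cyba was 71.1 to 813 times Nox1 in SI and 9.74 to 15.8 times in COL, a difference of 4.66, or 5.42 without SI3. The ratio of Noxo1 to Nox1 was 0.257 to 8.34 in SI and 0.0377 to 0.188 in COL, a difference of 4.21, which was 3.42 without SI1 and 5.09 without SI3. Each of the 3 had an exact permutation p = 0.0286 and an adjusted p = 0.0457 over the 8 ratios, with the same direction in 4 of 4 mice. In COL, the libraries thus held several times more Noxa1 than Nox1 transcript per kb and less Noxo1 than Nox1 in 4 of 4 libraries. All 3 ratios share Nox1, whose log2 fold change was -3.94, while Noxo1 (-0.03) and Cyba (0.26) did not differ detectably. The ratios are therefore not separate from the difference of Nox1. Their p is the lowest possible, and the adjusted p depends on how many ratios are tied at it.

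Because the data compare transcript levels, the sequence just before the start of the genes that were higher in COL, and of the Duox2 partner, is shown. The 250 bases before each RefSeq start site (GRCm38.p6) are written 5′ to 3′ on the strand of the gene. Capitals mark the letters TGATAA or AGATAA, which GATA factors can bind, and TATAAA, each on either strand. The RefSeq start of Nox1 (134111854) lies within the GENCODE span given above, so the window shown does not adjoin the end of that span. The RefSeq starts of Noxa1 (25095205) and Duox2 (122298227) also differ from those of GENCODE (25095149 and 122298449). The Duox2 window thus lies largely within the GENCODE span of the gene.
Nox1, chrX:134111855-134112104, minus strand: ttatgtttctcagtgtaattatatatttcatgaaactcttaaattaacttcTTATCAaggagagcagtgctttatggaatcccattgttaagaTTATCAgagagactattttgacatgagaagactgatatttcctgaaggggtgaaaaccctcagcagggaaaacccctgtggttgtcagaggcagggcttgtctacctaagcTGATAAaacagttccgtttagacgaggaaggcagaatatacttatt
Noxa1, chr2:25095206-25095455, minus strand: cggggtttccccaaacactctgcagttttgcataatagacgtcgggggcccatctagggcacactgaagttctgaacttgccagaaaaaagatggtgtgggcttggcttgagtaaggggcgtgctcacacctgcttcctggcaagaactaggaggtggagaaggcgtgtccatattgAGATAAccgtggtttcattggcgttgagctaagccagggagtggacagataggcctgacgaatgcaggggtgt
Duox2, chr2:122298228-122298477, minus strand: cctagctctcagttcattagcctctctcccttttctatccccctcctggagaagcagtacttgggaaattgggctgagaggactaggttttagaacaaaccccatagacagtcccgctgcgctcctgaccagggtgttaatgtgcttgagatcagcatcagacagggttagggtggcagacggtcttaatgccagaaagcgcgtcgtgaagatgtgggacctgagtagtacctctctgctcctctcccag
Duoxa2, chr2:122298650-122298899, plus strand: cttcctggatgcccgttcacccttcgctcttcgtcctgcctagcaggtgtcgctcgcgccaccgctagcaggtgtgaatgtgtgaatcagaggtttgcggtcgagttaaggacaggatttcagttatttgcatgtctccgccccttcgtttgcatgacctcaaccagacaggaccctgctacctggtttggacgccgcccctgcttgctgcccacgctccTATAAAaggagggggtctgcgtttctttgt
The Nox1 window held 3 GATA matches and the Noxa1 window held 1. Of 32851 promoter windows of the same length, 16.6% held 1 or more such matches and 0.371% held 3 or more. Duox2 and Duoxa2 held none. The Duoxa2 window held TATAAA, as did 12.4% of all windows. The CDX letters TTTATG or TTTATT matched 1 time in Nox1 and in none of the other windows, against 25.5% of windows with a match, and TGACNNNGC, the core to which NRF2 binds, matched in none of the 4, against 10.2%. The Nox1 window had 38.0% G and C, against a median of 52.4%. A match is a run of letters and was not tested as a bound site.

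Duox2, the peroxide-releasing oxidase of the apical membrane, was higher in COL. It measured 34.9, 41.2, 9.73 and 20.2 CPM in SI1 to SI4 and 58.3, 145, 68.7 and 51.7 CPM in COL1 to COL4. The tissues did not overlap, with SI3 low among the SI and COL2 high among the COL libraries. The SI mean was 26.5 ± 14.2 CPM, the COL mean was 80.8 ± 43.1 CPM, and the log2 fold change was -1.61 (SE 0.47, adjusted p = 0.0243 by edgeR's quasi-likelihood test). This call depended on single libraries. Without SI3 the log2 fold change was -1.30 (adjusted p = 0.0511), without SI4 it was -1.52 (adjusted p = 0.0692) and without COL2 it was -1.17 (adjusted p = 0.0547). The direction was the same in 4 of 4 mice, with COL above SI by 1.67-, 3.51-, 7.06- and 2.56-fold in mice 1, 2, 3 and 5.

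Duoxa2, the maturation factor of Duox2, did not differ detectably. Its levels were 12.5, 8.76, 1.27 and 6.50 CPM in SI1 to SI4 and 3.81, 15.2, 12.9 and 10.2 CPM in COL1 to COL4. SI3 was the lowest library for Duoxa2, as it was among SI libraries for Duox2, and mouse 1 alone had more Duoxa2 in SI than in COL. On the log2 scale, the difference was -0.53 (SE 0.60, interval of 2 SE either way -1.72 to 0.66, adjusted p = 0.547 by edgeR). The genes lie head to head on chromosome 2, Duox2 at 122279247 to 122298449 on the minus strand and Duoxa2 at 122298900 to 122302885 on the plus strand, with RefSeq start sites 673 bases apart. The ratio of Duoxa2 to Duox2 per kb was 0.509 to 1.38 in SI and 0.252 to 0.757 in COL (difference in log2 ratio 0.92, exact permutation p = 0.114, adjusted p = 0.131), so the tissues overlapped. Of the Duoxa2 transcript, 42.8% lies opposite Duoxa1, which had 0 to 19 counts per library.

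Nox1 exceeded Duox2 per kb in COL4 alone. Per kb, Nox1 was 0.0325 to 0.911 of Duox2 in SI and 0.277 to 1.77 in COL. The ratio was higher in COL in 4 of 4 mice (difference in log2 ratio -2.61), but the tissues overlapped, since SI3 had more Nox1 for its Duox2 than 2 COL libraries, and the exact permutation p was 0.0857 (adjusted p = 0.114). The difference was -1.96 without SI1 and -3.57 without SI3. The level of Duox2 per kb was 4.34 ± 2.33 in SI and 13.2 ± 7.05 in COL.

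**Figure D2:**
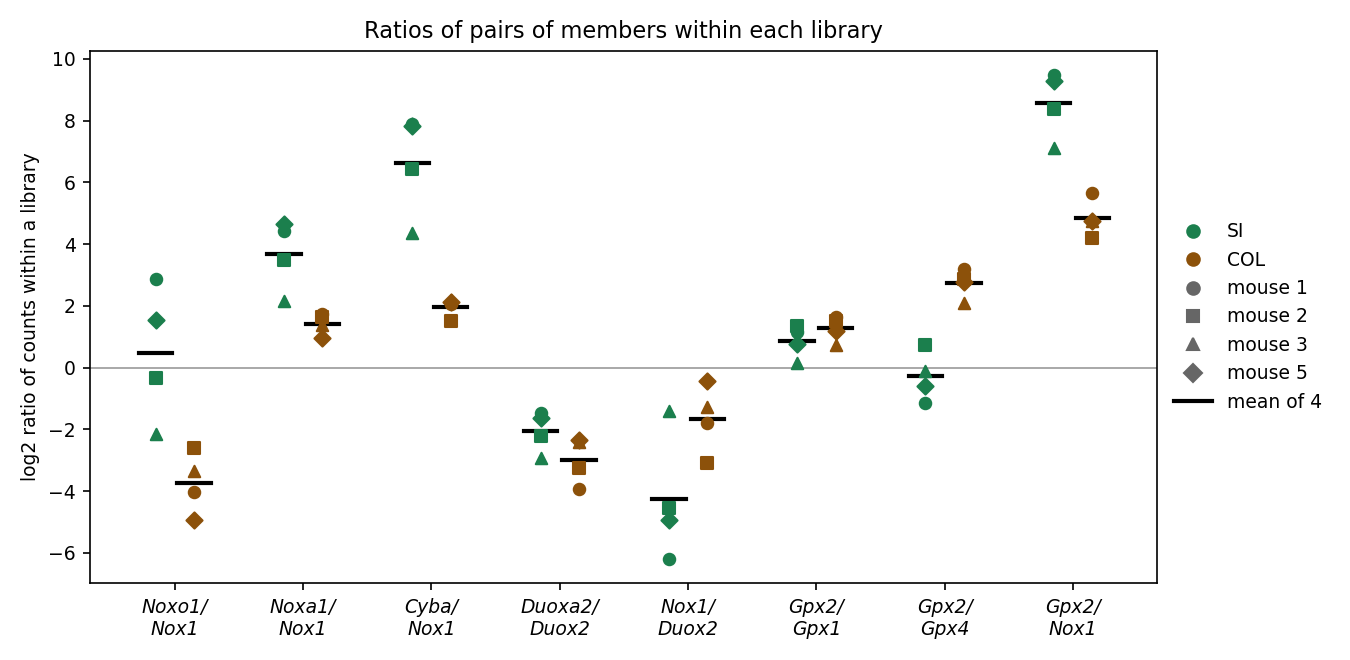
Log2 ratio of the counts of 2 genes within each of the 8 libraries (8 pairs, a symbol per donor mouse, black bar for the mean of 4). SI lies above COL for Noxo1, Noxa1, Cyba and Gpx2 relative to Nox1 and below COL for Gpx2 relative to Gpx4, while the other 3 ratios overlap.

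The 3 glutathione peroxidases are selenoproteins, and their reading frames hold a TGA codon that is read as selenocysteine and not as a stop. That codon is shown because it ties these genes to the selenium genes described below. The 15 bases on either side of it in GENCODE transcripts (GRCm38) are given 5′ to 3′ on the strand of the gene, with the TGA in capitals.
Gpx1, codon 47, chr9:108339436-108339468, plus strand: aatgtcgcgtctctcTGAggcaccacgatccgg
Gpx2, codon 40, chr12:76795241-76795273, minus strand: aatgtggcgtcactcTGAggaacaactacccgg
Gpx4, codon 129 of transcript Gpx4-201, chr10:80054722-80054754, plus strand: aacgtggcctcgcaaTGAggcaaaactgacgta
Gpx1 and Gpx2 shared 27 of the 33 bases, Gpx2 and Gpx4 shared 21, and Gpx1 and Gpx4 shared 19.

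Gpx4, the phospholipid hydroperoxide peroxidase, was higher in SI. It measured 749, 363, 556 and 625 CPM in SI1 to SI4 and 92.2, 42.5, 178 and 149 CPM in COL1 to COL4. The lowest SI library was above the highest COL library. The SI mean was 573 ± 161 CPM and the COL mean 116 ± 60.4 CPM. The log2 fold change was 2.31 (SE 0.47, adjusted p = 0.00337 by edgeR's quasi-likelihood test). The difference was 2.84 on the log2 scale between libraries of high mitochondrial share and 2.07 between those of low share. In mice 1, 2, 3 and 5, SI exceeded COL by 8.12-, 8.54-, 3.12- and 4.18-fold. Of the 50-base stretches of its transcript, 61.7% also occur in other annotated transcripts, mainly of the pseudogene Gpx4-ps2, so the way in which reads with several matches were treated bears on its level.

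Gpx2, the gastrointestinal form, was among the most abundant transcripts in COL. It measured 340, 598, 513 and 411 CPM in SI1 to SI4 and 840, 310, 763 and 1031 CPM in COL1 to COL4. COL was higher in mice 1, 3 and 5, and COL2 was the lowest of the 8 libraries. Gpx2 had a log2 fold change of -0.66 (SE 0.42, interval of 2 SE either way -1.50 to 0.17, adjusted p = 0.268 by edgeR). Between libraries of low mitochondrial share it was -1.25 on the log2 scale, and between those of high share it was 0.12. Its level per kb, 690 ± 286 in COL, ranked 72 of the 14441 tested genes with a transcript length there, and 436 ± 106 in SI ranked 208. Gpx2-ps1, a pseudogene that holds 18.9% of its 50-base stretches, had 6 to 50 counts.

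Gpx1, the form of most cells, did not differ detectably between the tissues. It measured 153, 236, 464 and 241 CPM in SI1 to SI4 and 269, 108, 455 and 449 CPM in COL1 to COL4. The extremes were SI3 at the top and COL2 at the bottom. Gpx1 had a log2 fold change of -0.23 (SE 0.49, interval of 2 SE either way -1.20 to 0.75, adjusted p = 0.765 by edgeR). The difference was 0.96 between libraries of high and -1.23 between libraries of low mitochondrial share, which point in opposite directions.

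The balance among the 3 peroxidases differed between the tissues. Per kb of transcript, Gpx4 made up 62.0, 31.9, 37.9 and 50.7% of their sum in SI1 to SI4 and 8.20, 9.83, 13.6 and 9.78% in COL1 to COL4. Gpx2 made up 34.7 ± 9.85% in SI and 63.4 ± 6.73% in COL, and Gpx1 made up 19.6 ± 7.30% and 26.2 ± 4.56%. The ratio of Gpx2 to Gpx4 was 0.424 to 1.54 in SI and 3.99 to 8.49 in COL, a difference of -3.02 in log2 ratio (exact permutation p = 0.0286, adjusted p = 0.0457). The ratio of Gpx2 to Gpx1 was 1.11 to 2.55 in SI and 1.68 to 3.14 in COL, which overlapped (difference in log2 ratio -0.43, exact permutation p = 0.257, adjusted p = 0.257), although it was higher in COL in 4 of 4 mice. The sum of the 3 was 1267 ± 142 CPM per kb in SI and 1104 ± 477 CPM per kb in COL, so the sums overlapped while the shares of Gpx4 and Gpx2 did not.

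**Figure D3:**
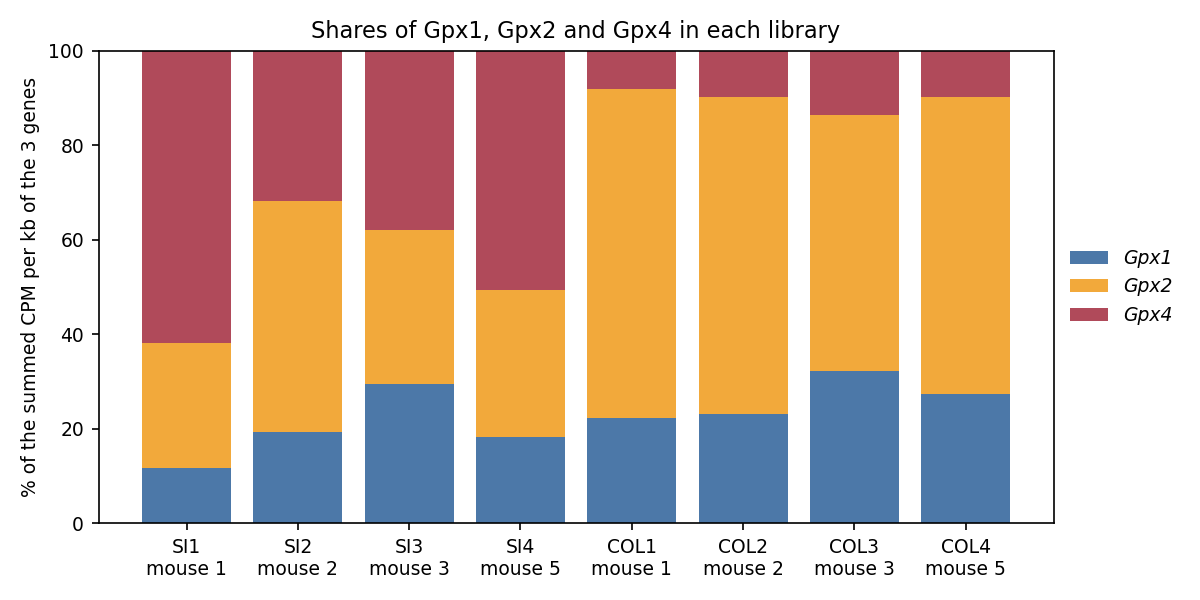
Share of Gpx1, Gpx2 and Gpx4 in the sum of their CPM per kb of transcript (%, stacked bars from 0 to 100) in each library. Gpx4 takes 31.9 to 62.0% in SI and 8.20 to 13.6% in COL, and Gpx2 takes 26.3 to 48.9% in SI and 54.2 to 69.6% in COL.

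Set against the oxidase, Gpx2 was 331 to 1719 times Nox1 per kb in SI and 44.3 to 121 times in COL. The difference was 3.73 in log2 ratio (exact permutation p = 0.0286, adjusted p = 0.0457), with SI above COL in 4 of 4 mice. This ratio also holds Nox1, and Gpx2 by itself did not differ detectably (log2 fold change -0.66).

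Nos2, the inducible nitric oxide synthase, showed the largest difference of the 10 genes. It measured 182, 130, 13.9 and 86.7 CPM in SI1 to SI4 and 0.176, 5.84, 2.78 and 1.55 CPM in COL1 to COL4. SI3 was far below the other SI libraries and still above every COL library. The SI mean was 103 ± 71.0 CPM and the COL mean 2.59 ± 2.42 CPM. The log2 fold change was 5.35 (SE 0.98, adjusted p = 0.00182 by edgeR's quasi-likelihood test). The COL values rest on 6 to 104 counts. The difference was 4.99-fold in mouse 3, 22.2-fold in mouse 2, 56.0-fold in mouse 5 and 1033-fold in mouse 1, where COL1 had 6 counts. Without COL2 the fitted log2 fold change was 6.13, and without SI1 it was 4.95. At high mitochondrial share the difference was 5.06 on the log2 scale, and at low share it was 5.85. In a fit of the 4 libraries of high share alone, the adjusted p was 0.0690.

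Since Nos2 is also made by leukocytes, their markers were set beside it. The 7 lymphocyte markers summed to 106 to 385 CPM in SI and 13.6 to 62.5 CPM in COL. Of the 6 tested, 4 (Cd3e, Cd8a, Gzma and Gzmb) were higher in SI, against 15.5% of all genes tested. The 10 myeloid markers summed to 13.2 to 29.2 CPM in SI and 5.40 to 38.7 CPM in COL, which overlapped. Of the 5 tested, 3 were higher in SI and 1 in COL, against 15.5% and 12.9% of all genes tested. Those higher in SI were Itgam (7.98 CPM in SI and 1.44 CPM in COL), Fcer1g (6.88 and 1.46 CPM) and Tyrobp (3.37 and 0.743 CPM). Ly6g, listed as a neutrophil marker, was higher in COL (0.0380 CPM in SI and 13.7 CPM in COL). It made up much of the COL sum, so the overlap of the sums does not hold for each marker. Among the other markers of the list, Adgre1 and Csf1r had at most 34 counts in a SI library, S100a8 and S100a9 had 0 counts in every SI library, and Mpo had 0 counts in all 8. Cd68, also on the list, was not among those called. The part of leukocytes in the level of Nos2 was not tested.

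Ordered by level per kb in SI, the genes ran from Gpx4 (576 ± 162) over Gpx2 (436 ± 106), Gpx1 (255 ± 124) and Cyba (167 ± 49.7) to Nos2 (24.6 ± 16.9), Noxa1 (9.77 ± 2.5), Duoxa2 (4.57 ± 2.96), Duox2 (4.34 ± 2.33), Noxo1 (0.845 ± 0.505) and Nox1 (0.639 ± 0.582). Neighbours in this order differed by less than the sum of their SDs, apart from Cyba and Nos2 and from Duox2 and Noxo1. In COL, the order ran from Gpx2 (690 ± 286) over Gpx1 (299 ± 155), Cyba (139 ± 73.8), Gpx4 (116 ± 60.7), Noxa1 (39.7 ± 7.37), Duox2 (13.2 ± 7.05), Nox1 (9.79 ± 4.09) and Duoxa2 (6.61 ± 3.09) to Noxo1 (0.868 ± 0.424) and Nos2 (0.617 ± 0.577). There, the neighbours that differed by more than the sum of their SDs were Gpx4 and Noxa1, Noxa1 and Duox2, and Duoxa2 and Noxo1. Among these 14441 genes, Nox1 lay at percentile 23.4 in SI and 73.5 in COL, and Nos2 at percentile 83.7 and 17.4. The peroxidases lay between percentiles 96.9 and 99.5 in both tissues. Of the 50-base stretches, 61.7% of those of Gpx4, 44.8% of Noxo1 and 41.1% of Duoxa2 also occur in other transcripts, against 0 for Gpx1, Cyba and Nos2. Such shared sequence may bear on these orders, which was not tested.

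The other genes of these families were mostly near the limit of detection. Of 18 further oxidase, peroxidase and synthase genes, 8 passed the filter, of which 1 was higher in SI and 0 in COL. That is 12.5% called, against 28.4% of all genes tested. Gpx3, the secreted plasma peroxidase, was higher in SI, with 25.3, 5.44, 6.03 and 15.7 CPM in SI and 1.55, 2.42, 1.95 and 2.68 CPM in COL (log2 fold change 2.61, SE 0.52, adjusted p = 0.00305 by edgeR's quasi-likelihood test). Its levels did not overlap between the tissues. The phagocyte oxidase itself, Cybb, had 0.552 ± 0.618 CPM in SI and 0.583 ± 0.157 in COL (adjusted p = 0.939), from 1 to 36 counts.

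The Rac GTPases that activate Nox1 did not pass the test. Rac1, the form found in all tissues, had 85.1 ± 14.8 CPM in SI and 57.0 ± 7.59 in COL, with no overlap (log2 fold change 0.58, SE 0.24, adjusted p = 0.101 by edgeR). Of its exonic bases, 51.4% lie opposite Daglb. Rac2, the form of blood cells, had 21.7 ± 9.36 and 9.77 ± 5.71 CPM (adjusted p = 0.0823), and Rac3 had 0.467 ± 0.444 and 1.31 ± 0.559 CPM (adjusted p = 0.199). Ncf1 (p47phox, log2 fold change 1.60, adjusted p = 0.205), Cybc1, a chaperone of the phagocyte oxidase (0.52, adjusted p = 0.302), and Gpx7 (-1.65, adjusted p = 0.170) did not pass either. The filter removed Nox3, Nox4, Duox1, Duoxa1, Ncf4, Gpx5, Gpx6, Gpx8, Nos1 and Nos3, which had at most 54 counts in any library. Nos3, the synthase of endothelium, had 0 counts in every SI library and at most 3 in COL.

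**Figure D4:**
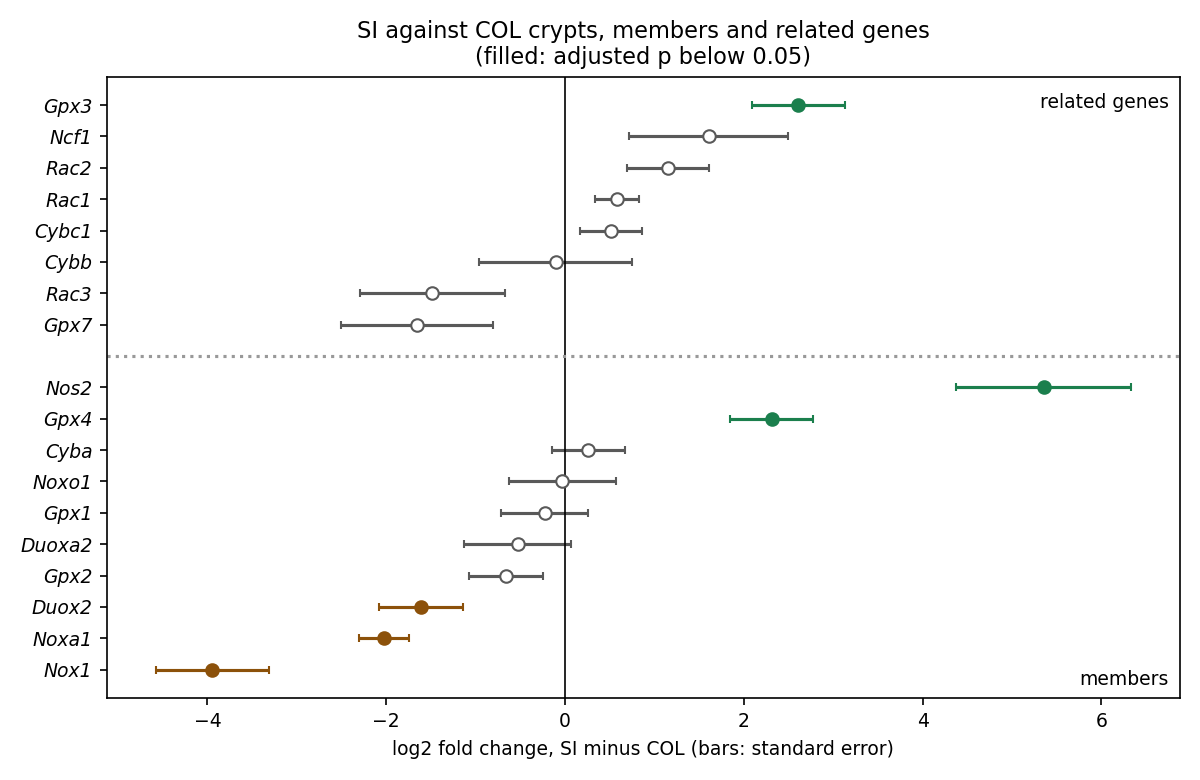
Log2 fold change of SI minus COL for the 10 genes (lower block) and the 8 related genes that passed the filter (upper block), with bars for the standard error and filled points for an adjusted p below 0.05. Values run from -3.94 for Nox1 to 5.35 for Nos2, and Gpx3 (2.61) is the related gene past the threshold.

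Wider lists of genes around these enzymes were counted in the same fit. Of all genes tested, 28.4% were called, 15.5% as higher in SI and 12.9% in COL. The share was 35.0% for peroxide removal, 33.3% for glutathione and NADPH, and 40.0% for NRF2. For selenoprotein synthesis it was 58.3%, for other selenoproteins 46.2%, for nitric oxide 33.3% and for epithelial response 73.3%. No list was tested as a set, and shares of 33.3 to 40.0% lie near that of all genes. Of 20 tested genes that remove superoxide and peroxide, 5 were higher in SI and 2 in COL (median log2 fold change 0.49). Catalase (Cat), which breaks down hydrogen peroxide in peroxisomes, had 810 CPM in SI and 86.2 in COL (log2 fold change 3.23, SE 0.50). Glutaredoxin (Glrx, 3.49), sulfiredoxin (Srxn1, 1.76) and Prdx5 (2.05) were higher in SI as well. Prdx6, a peroxiredoxin that uses glutathione, was higher in COL, with 376 CPM in SI and 1535 CPM in COL (-2.03, SE 0.46), as was Txnrd3 (-1.54). Of 15 genes that supply glutathione and NADPH, 3 were higher in SI and 2 in COL (median 0.62). Ggt1, which cleaves glutathione outside the cell, had 2181 CPM in SI and 16.9 in COL (7.01, SE 0.86), Idh1 (1.79) and Nnt (0.90) were higher in SI, and Pgls (-1.36) and the cystine transporter Slc7a11 (-2.71, at 0.243 and 1.56 CPM) were higher in COL.

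Of 15 genes of the NRF2 pathway, which controls many antioxidant genes, 2 were higher in SI and 4 in COL (median 0.08). Bach1, a repressor of that pathway (1.57), and Osgin1 (2.90) were higher in SI. Heme oxygenase Hmox1 had 0.837 CPM in SI and 14.6 in COL (-4.10, SE 1.01), and Akr1b8 (-4.06), Abcc1 (-2.87) and Slc48a1 (-2.36) were higher in COL as well. Members of the list thus changed in both directions.

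As selenoproteins, Gpx1, Gpx2 and Gpx4 depend on selenium. Of 12 genes of selenoprotein synthesis and selenium handling, 5 were higher in SI and 2 in COL (median 0.91). Those higher in SI included enzymes that make or recycle the selenium donor and load it onto its tRNA, namely Sephs2 (27.4 CPM in SI and 6.49 CPM in COL, log2 fold change 2.07), Scly (1.69) and Sepsecs (1.36), and the related Sephs1 (1.23). The selenium-binding protein Selenbp1, which is not a selenocysteine protein, had 116 CPM in SI and 1911 in COL (-4.04, SE 0.65), and the selenoprotein P receptor Lrp8 was higher in COL at low levels (-2.72, at 0.514 and 3.34 CPM). Of 13 other selenoproteins tested, 4 were higher in SI and 2 in COL (median 0.37). Selenop, the selenium carrier of plasma, had 7999 CPM in SI and 360 in COL (4.47, SE 0.84). Selenoi (2.81), Dio1 (1.83) and Selenot (0.92) were higher in SI, and Selenom (-3.55) and Selenoh (-1.69) were higher in COL.

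Of 12 genes that supply or use arginine, make the cofactor of nitric oxide synthase or degrade its inhibitors, 1 was higher in SI and 3 in COL (median -0.15). Arg2, an arginase that uses the same substrate as Nos2, had 923 CPM in SI and 12.0 in COL (log2 fold change 6.26, SE 0.60). Ass1, which takes part in the recycling of arginine (-3.20), Ddah1, which degrades inhibitors of the synthase (-4.60), and Arg1 (-2.38, at 0.426 and 2.24 CPM) were higher in COL.

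Of 15 tested genes that epithelium induces in response to microbes and cytokines, 8 were higher in SI and 3 in COL (median 1.21). The antimicrobial lectins Reg3b (5904 CPM in SI and 201 CPM in COL, log2 fold change 4.88) and Reg3g (4.58) and the receptor chains Il22ra1 (2.76) and Il10rb (1.92) were higher in SI. The serum amyloid genes went the other way. Saa1 had 1.76 CPM in SI and 321 in COL (-7.51, SE 0.84), Saa3 was lower (-4.07, at 0.0973 and 1.72 CPM), and Saa2 had 0 counts in every SI library and 10 to 65 in COL. All adjusted p-values of the genes named from these lists were between 2.96e-05 and 0.0486 by edgeR's quasi-likelihood test.

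**Figure D5:**
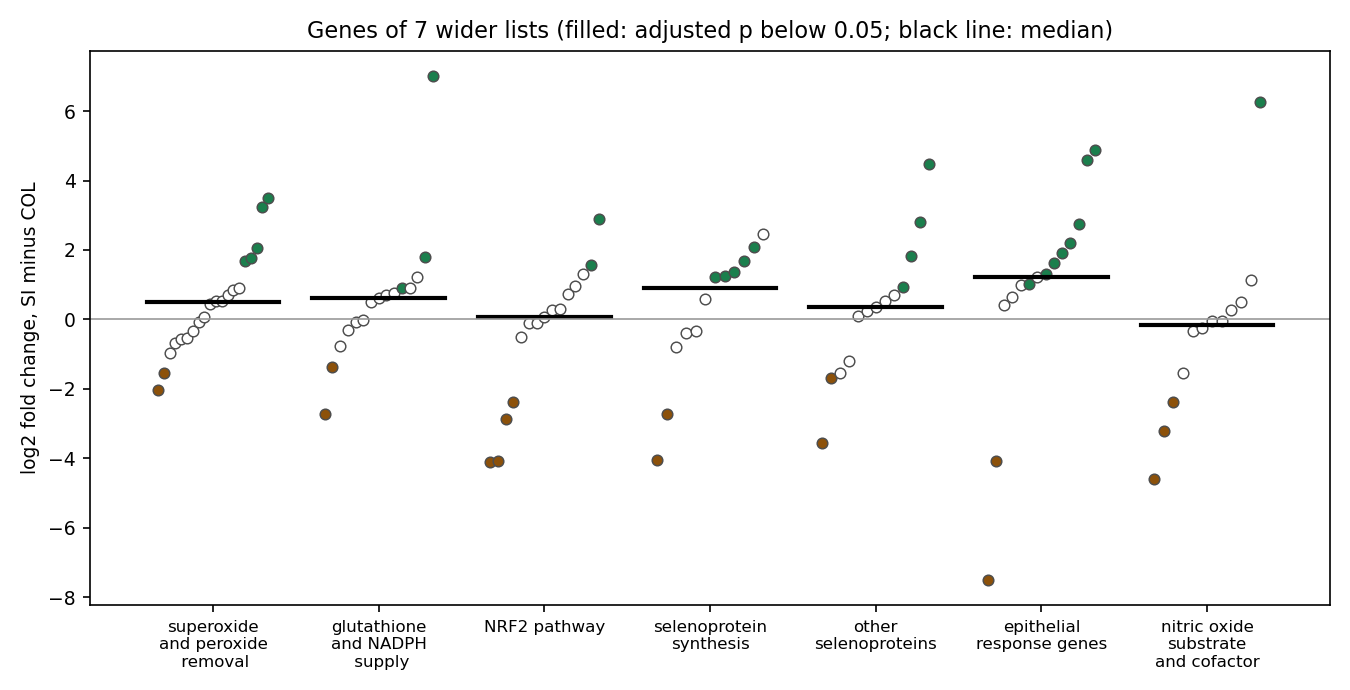
Log2 fold change of SI minus COL for the tested genes of 7 lists, ordered by value within a list, with filled points for an adjusted p below 0.05 and a black line for the median (-0.15 to 1.21). Each list has filled points on either side of 0, and Saa2, with 0 counts in every SI library, is counted in its median but not drawn.

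The genes whose pattern over the 8 libraries was most like that of 4 of the 10 were listed by the root mean square difference of centred log2 CPM, among 7812 genes of sufficient level. For Nox1 these were Trp53i11 (0.53), Pla2g4a (0.56) and Hpd (0.59), and for Duox2 they were Arhgap35 (0.33), Dock9 (0.39) and Rap1gap2 (0.44). For Gpx2 they were Nme6 (0.14), Lyrm4 (0.19) and Lsm6 (0.20), and for Nos2 they were Ubd (0.74), Slc15a1 (0.95) and Gk (1.09). The nearest genes of Nos2 lay farther from it than those of Gpx2 from Gpx2, and none of these values was tested.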

How the data were processed

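Crypt RNA of 4 wild type mice gave 4 SI and 4 COL libraries, sequenced paired-end on an Illumina HiSeq4000. The authors deposited whole-number read counts per Ensembl gene without normalization, 1 column per library. Reads were trimmed with Trimmomatic 0.36 and aligned and counted with STAR 2.5.2b, versions credited to the submitters' processing notes. These notes list the builds mm9 and mm10, and the study's methods name mm10. Which annotation release was used, and whether strand was used, is not given in the sources used here. The organoid libraries were not analysed here.

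Libraries were assigned to tissue, mouse and sex from the labels. Symbols and positions came from GENCODE vM21 on GRCm38, which is mm10. It matched 45143 of 45706 identifiers, and promoter sequences came from RefSeq (GRCm38.p6), which matched 9 of the 10 genes. The counts were tested with edgeR 4.0.16 in R 4.3.3 (quasi-likelihood, TMM, filterByExpr with the tissue as group, a minimum count of 10 and of 15 in all), 4 SI against 4 COL, with Benjamini-Hochberg adjustment over 14491 genes and a threshold of 0.05. Standard errors are the coefficient divided by the root of its F value. CPM are counts scaled to 1000000 by the TMM-scaled total of the genes kept, and CPM per kb were divided by the longest protein-coding transcript. Folds between the libraries of a mouse are ratios of CPM, and differences within libraries of high or low mitochondrial share are mean differences of log2(CPM + 0.1). Ratios of 2 genes used log2 of counts plus 0.5 and two-sided exact permutation tests (SciPy 1.17.1). With 4 pairs, a sign-flip test cannot give a p below 0.125. The study's methods name limma without a design, and limma 3.58.1 (voom) was an alternative. The fit was tested on simulated data.

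The SI and COL libraries of a mouse are paired by the donor number in the labels. Their deviations from the tissue means correlated with r = -0.24, 0.39, -0.08 and 0.33 in mice 1, 2, 3 and 5, and a fit with the mouse as a block was an alternative. The others were library size alone, DESeq2 1.42.0, no filter, at least 10 counts in every library, removal of 18 genes over 1% of any library, the mitochondrial share as a covariate, a test against a log2 change of 1, an offset of 2 counts and counts per length for ratios, and leaving out each library. Fits of only the libraries of high or of low mitochondrial share were chosen after seeing the data. The 10 genes and the lists were chosen with earlier results of these data known. All 10 genes and all 18 related genes are named. A pair of genes was taken out of the lists and is not reported here. Up to 4 genes per direction with the lowest adjusted p are named from the other lists, and the 3 most alike genes for Nox1, Duox2, Gpx2 and Nos2, among genes with a mean log2 CPM of at least 3. Marker genes are named where a result touches them. Intervals of fold changes span 2 standard errors on either side, which is somewhat narrower than a 95% interval of the fit. Counting error is small beside the spread between mice except where low counts are given.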

Additional observations from a re-analysis of the deposited data

Results flagged for a closer look

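Among the 10 genes, the mean differences of Noxo1, Gpx1, Duoxa2 and Gpx2 had opposite directions in female and male mice. Noxo1 did so in every mouse of each sex. For Noxo1, the mean log2 difference of SI minus COL was 1.13 in the 2 female mice and -1.29 in the 2 male mice. For Gpx1 it was -0.86 in the female and 0.58 in the male mice, where mouse 2 had 1.13 and mouse 3 was near 0 (0.029). For Duoxa2 it was 0.53 in the female mice, with 1.69 in mouse 1 and -0.64 in mouse 5, and -2.02 in the male mice. For Gpx2 it was -1.32 in the female mice and 0.19 in the male mice, with 0.95 in mouse 2 and -0.57 in mouse 3. In an edgeR fit with a tissue by sex interaction, the adjusted p of the interaction was 0.909 for Noxo1 and 0.940 for Gpx1. By the same edgeR fit it was 0.909 for Duoxa2 and 0.915 for Gpx2. Of 14491 genes, 0 passed an adjusted p of 0.05 for the interaction and 761 had an unadjusted p under 0.05, among them Nox1 and Noxo1, and no other tool was run for it. With 2 mice per sex, sex cannot be told apart from the single mice, nor in SI from the mitochondrial share, which was low in both female and high in both male libraries. Over the 10 genes and 8 ratios in each tissue, 36 groups of 4 libraries, 0 had a library set apart from the others by Dixon's test, which chance alone would flag in about 1 of 20.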

How the results depend on the processing

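Nox1, Noxa1 and Gpx4 kept their direction and an adjusted p below 0.05 under all 20 alternatives, with log2 fold changes of -5.93 to -2.67, -2.78 to -1.64 and 1.5 to 2.69. Nos2 did so under 18 of 19, the exception being the 4 libraries of high mitochondrial share (adjusted p = 0.0690), and with at least 10 counts in every library it was not tested. Duox2 kept its direction and lost its call without SI3, SI4 or COL2, in the libraries of high share (adjusted p = 0.0855) and in the test against a log2 change of 1 (adjusted p = 0.180). Of the 10 genes, 3 were called in the libraries of high share and 7 in those of low share, where Gpx1 (-1.20) and Gpx2 (-1.26) joined, and over all genes these fits called 2264 and 5530. Leaving out each library gave 4 to 5, and the other alternatives gave 4 to 6. Over all genes, the test against a log2 change of 1 called 2072, against 4116 in the fit reported, and leaving out each library gave 3167 to 4480. The replicate block (donor mouse) called 4072 genes and changed no call among the 10. With library size alone, the median over all genes moved from -0.09 to -0.82. Gpx2 was then called at -1.47, which is -0.65 relative to that median, and -0.57 relative to it with TMM. Calls were split 2055 to 2194 without the genes over 1% of a library, 2143 to 2380 with no filter, and 3109 to 2349 with the mitochondrial covariate. Directions turned only for genes that were not called. Noxo1 was 0.032 in limma-voom, 0.034 there with the block, 0.40 in the libraries of low share and -0.47 to 0.25 when each library was left out. Cyba was -0.54 with library size alone and -0.17 in the libraries of low share, and Gpx1 was 0.82 in those of high share. The causes were not tested. The 8 ratios kept their direction with an offset of 2 counts and when each library was left out. Division by length and the block leave the difference as it is by construction. The replicate block for the ratios gave sign-flip p-values of 0.125 to 0.25, which cannot pass 0.05 with 4 pairs. Low counts limit Noxo1 in both tissues, Nox1 in SI and Nos2 in COL.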
